A study of Mus musculus with 16 samples.

Results

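The receptor tyrosine kinases of the ErbB family, 5 ligands that bind them and the receptor Met were examined in ATAC-seq data from mouse small cell lung cancer (SCLC). The 10 genes were the receptors Egfr, Erbb2, Erbb3 and Erbb4, the ligands Areg, Ereg, Hbegf, Btc and Tgfa, and Met. A peak was counted for a gene when the nearest transcription start site of a protein-coding gene to its centre, at any distance, belonged to that gene. By this rule 91 of the 80367 peaks in the deposited lists belonged to 9 of the 10 genes, and Ereg had none. Tumors arose in TKO;Hes1GFP/+ mice, whose lung cells lose Rb, p53 and p130 after Cre recombinase is delivered by an adenovirus with a CMV promoter, and which carry GFP at 1 endogenous Hes1 allele. Both sorted populations, GFPhigh and GFPneg, carry the 3 deletions and the reporter, and they differ in GFP. Hes1 is a target of Notch, and in this model GFPneg cells are the neuroendocrine (NE) cells and GFPhigh cells the non-NE cells. Cells came from the pooled tumors of each mouse, with 4 GFPhigh and 4 GFPneg libraries from 3 mice, so that 2 of the 4 pairs shared a mouse. The age of the mice was not in the labels used here.

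ATAC-seq cuts DNA where it is not covered by nucleosomes or other proteins, so that reads pile up over active promoters and enhancers. ErbB receptors sit in the plasma membrane and signal as pairs. Their ligands are made as membrane proteins, and proteases can cut them loose to bind a receptor on the same or a neighbouring cell. Egfr binds amphiregulin (Areg), epiregulin (Ereg), HB-EGF (Hbegf), betacellulin (Btc) and TGF-alpha (Tgfa). Erbb4 also binds betacellulin, epiregulin, HB-EGF and the neuregulins, Erbb3 binds neuregulins and has little kinase activity of its own, and Erbb2 has no known ligand and serves as a partner of the others. Met is the receptor of hepatocyte growth factor and signals through many of the same adaptors. In the airway epithelium both receptor systems are known for their part in growth and repair.

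The deposited files were a pair of lists. One held 40828 peaks with more reads in GFPhigh cells, called opened here, and the other 39539 peaks with fewer reads in GFPhigh cells, called closed. Every listed peak passed the limits of the study, an adjusted p-value under 0.001 and a change of more than 2-fold. Peaks that did not pass are not in the lists, so a gene without a listed peak is not thereby inaccessible. The only level was one mean normalized read count per peak over all libraries, and values of single libraries were not used here. No replicate errors were therefore worked out, and no new test of a difference between GFPhigh and GFPneg cells was made. The authors' own fold changes, errors and p-values are in the lists and were not used beyond a check of the limits. Depth per library is unknown because the lists hold no value per library. The labels were checked at marker genes. Of 10 NE markers 8 had a closed peak within 1 kb of a start site and 0 an opened one, and of 6 club cell markers 4 had an opened one and 0 a closed one. Among all protein-coding genes 28.6% had an opened and 8.67% a closed promoter peak. Peaks of the NE list were 11 opened and 64 closed, and those of the club list 27 and 8. The NE marker Chga ran the other way, with 8 opened and 6 closed peaks. Of 8 leukocyte markers only Cd68 had an opened promoter peak, of 6 endothelial markers Kdr had an opened and Tek a closed one, and of 6 fibroblast markers Col1a1 had an opened and Col1a2 a closed one. Peaks of the leukocyte list were 14 opened and 7 closed, 66.7% opened against 50.8% of all listed peaks, and Ptprc had 11 and 5 of them. Those of the endothelial list were 14 and 52, and those of the fibroblast list 10 and 13. Per the methods, tumor cells of these mice were stained before sorting for CD45 (leukocytes), CD31 (endothelium) and a red cell marker, along with CD24. The part of other cell types in the results below was not tested.

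Sequences of 6 regions are shown first as examples of promoter and distal peaks with the strings that are counted further on, and each is written 5′ to 3′. Capitals mark strings found by script. These are GGAATG, the core bound by TEAD factors, TGANTCA, the core bound by AP-1 (Fos and Jun) dimers, and, in the promoters only, GTGGGAA, the core bound by the Notch effector RBPJ. Both strands were searched, so that CATTCC is the TEAD core on the other strand. The promoters of Met (chr6:17463707-17464006) and Erbb2 (chr11:98412234-98412533) run from 250 bases before to 50 bases after the RefSeq start, on GRCm38.p6, both on the plus strand. All 300 bases of the first and 253 of the second lay in an opened peak. The strings in the Met promoter lie outside the central 200 bases of that peak, so they are not in the counts over central bases.
Met promoter: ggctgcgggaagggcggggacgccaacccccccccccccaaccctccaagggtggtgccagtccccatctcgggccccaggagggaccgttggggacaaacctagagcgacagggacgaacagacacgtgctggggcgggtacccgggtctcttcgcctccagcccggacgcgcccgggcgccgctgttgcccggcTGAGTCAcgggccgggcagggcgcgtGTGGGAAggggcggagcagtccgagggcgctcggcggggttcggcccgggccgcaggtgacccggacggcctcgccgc
Erbb2 promoter: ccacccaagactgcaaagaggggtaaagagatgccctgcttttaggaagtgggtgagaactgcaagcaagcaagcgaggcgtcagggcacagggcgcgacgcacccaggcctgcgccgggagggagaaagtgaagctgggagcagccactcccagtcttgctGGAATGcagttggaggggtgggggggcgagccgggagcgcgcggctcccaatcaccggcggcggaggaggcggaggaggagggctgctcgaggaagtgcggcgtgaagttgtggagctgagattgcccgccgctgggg
The other 4 were read from the GRCm38.p6 genome, which is mm10, on the plus strand. They are the central 200 bases of the opened Erbb3 promoter peak (chr10:128589654-128589853), of the closed Egfr peak with the highest count (chr11:16737399-16737598), of the opened Areg peak with the highest count (chr5:91205575-91205774) and of the opened Tgfa peak with the most TEAD cores (chr6:86169181-86169380). The last was chosen after its values were seen.
Erbb3 promoter peak: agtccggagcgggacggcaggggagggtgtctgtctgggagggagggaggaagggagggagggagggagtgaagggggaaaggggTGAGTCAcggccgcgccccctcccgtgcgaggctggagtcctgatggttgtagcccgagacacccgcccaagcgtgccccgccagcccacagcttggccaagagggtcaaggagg
Egfr closed peak: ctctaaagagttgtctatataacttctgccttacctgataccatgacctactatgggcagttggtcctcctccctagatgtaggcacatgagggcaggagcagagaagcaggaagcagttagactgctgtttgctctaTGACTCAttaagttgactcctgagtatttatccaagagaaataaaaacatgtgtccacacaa
Areg opened peak: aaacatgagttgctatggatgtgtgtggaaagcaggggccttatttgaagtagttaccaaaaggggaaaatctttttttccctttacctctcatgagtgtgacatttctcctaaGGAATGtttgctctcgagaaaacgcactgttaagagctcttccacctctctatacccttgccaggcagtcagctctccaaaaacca
Tgfa opened peak: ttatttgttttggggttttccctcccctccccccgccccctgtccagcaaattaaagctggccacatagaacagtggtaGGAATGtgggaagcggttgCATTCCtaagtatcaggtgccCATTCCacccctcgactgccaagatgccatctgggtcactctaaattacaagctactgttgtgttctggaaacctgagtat

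Across the 10 genes, 53 peaks were opened and 38 closed. The opened share was 58.2% (95% Wilson interval 48.0 to 67.8%), against 50.8% opened and 49.2% closed among all listed peaks. The interval includes the share of the whole lists, and it covers counting error only, since peaks around one gene are not independent of each other. Beneath this total the genes ran in opposite directions. Of the 38 closed peaks 19 belonged to Egfr, and the other genes had 50 opened and 19 closed peaks, an opened share of 72.5% (61.0 to 81.6%). Peaks of the receptors were opened in 13 of 37 cases (35.1%), but without Egfr in 10 of 15 (66.7%, 41.7 to 84.8%). Peaks of the ligands were opened in 24 of 36 cases (66.7%), but without Tgfa in 10 of 21 (47.6%, 28.3 to 67.6%). Each of these class shares thus turned on 1 gene, and neither receptors nor ligands ran one way. Peaks of Met were opened in 16 of 18 cases (88.9%). The opened peaks had a median width of 278 bp and a median mean count of 32.9, against 300 bp and 40.7 for all opened peaks, and the closed peaks 232 bp and 26.2, against 248 bp and 25.8 for all closed peaks.

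**Figure D1:**
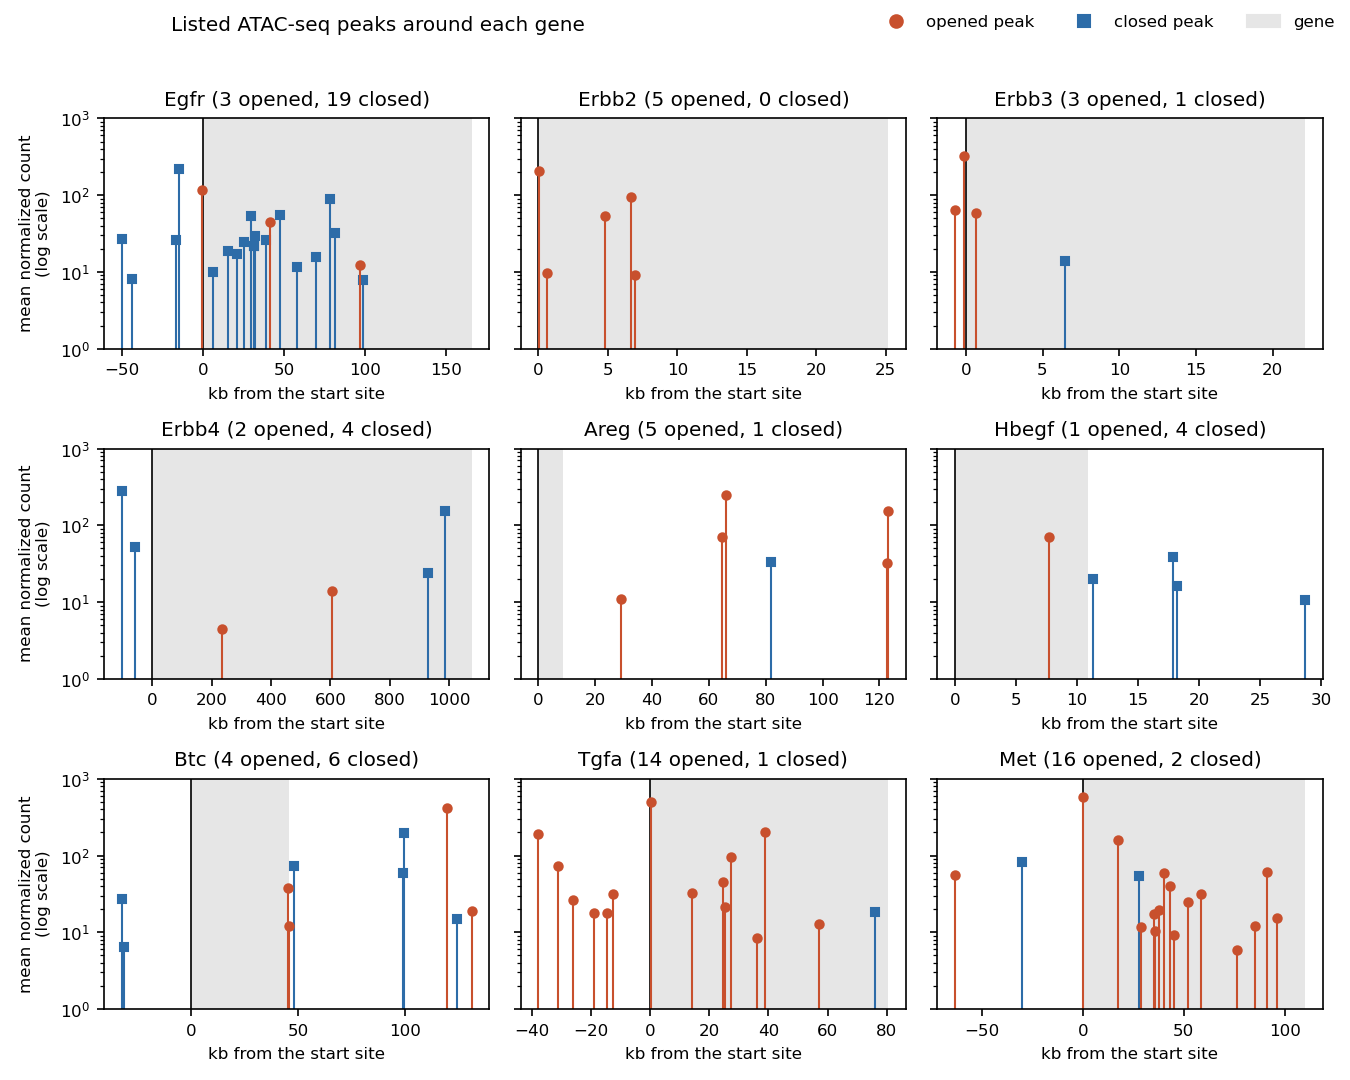
Each panel plots the listed peaks of one gene by the distance of the peak centre from the 5′-most start site in kb, in the direction of transcription, and by the mean normalized read count per peak over all libraries on a log axis. Circles are opened and squares closed peaks, and the shaded span is the gene. The Egfr gene holds a row of closed peaks behind an opened promoter peak with a mean count of 118, whereas Tgfa and Met carry opened peaks before and along the gene.

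Egfr (ENSMUSG00000020122, chr11:16752203-16918158, plus strand), which binds all of the ligands examined here, had 22 listed peaks, of which 3 were opened and 19 closed. The peak nearest its promoter and most of the locus were on different lists. The peak nearest the start site (chr11:16751419-16751838) was opened, with a mean count of 118 over 420 bp, or 28.2 reads per 100 bp. Its centre lay at -575 bp, where negative distances lie before the start, and its edge 365 bp from the start, so the start site itself was not in a listed peak. All 4 other upstream peaks, between -50.3 and -14.7 kb, were closed. The highest of them, at -14.7 kb (chr11:16737233-16737764), had a mean count of 221 over 532 bp, or 41.5 per 100 bp, and holds the AP-1 core shown above. The remaining 17 peaks lay in intron 1, which is 106 kb long. Of these 15 were closed, between 6.28 and 99.0 kb after the start and with mean counts of 7.86 to 89.5, and 2 were opened, at 41.2 kb (44.6) and at 96.7 kb (12.2). Most closed Egfr peaks were low, and with a mean count of at least 30 there remained 2 opened and 5 closed. The last opened peak lay next to a closed one at 99.0 kb with a mean count of 7.86. A further 6 closed peaks lie inside the Egfr gene towards its 3′ end, where the start site of Fbxo48 is nearer, and are not among the 22.

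The Egfr locus was set beside other genes with many peaks. Of 21840 protein-coding genes 1230 (5.63%) had at least 15 listed peaks, and 269 of these (21.9%) had an opened share no higher than that of Egfr. Of the 269, which were picked for few opened peaks of any kind, 8 (2.97%) had an opened peak within 1 kb of a start site, Egfr among them, against 427 of the 1230 (34.7%). Within 500 bp of a start site there were 6 (2.23%), and Egfr was not among them because its peak is centred at -575 bp. The pattern was noticed in these data and the counts describe it without a test.

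Erbb2 (ENSMUSG00000062312, chr11:98412470-98437716, plus strand), the partner without a ligand, had 5 opened and 0 closed peaks. All 5 lay over exon 1 or in intron 1. The peak over the start site (chr11:98412281-98412691) had a mean count of 206 over 411 bp, or 50.1 per 100 bp, has its centre in exon 1 and holds the TEAD core shown in its promoter. The others, in intron 1, had mean counts of 9.58 at 655 bp, 53.7 at 4.77 kb, 95.4 at 6.64 kb and 9.22 at 6.95 kb after the start. The peak at 6.64 kb holds both a TEAD and an AP-1 core. A further 5 opened peaks within 10 kb of the gene belonged by the rule to its neighbours Grb7, Mien1 and Pgap3.

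Erbb3 (ENSMUSG00000018166, chr10:128567523-128589652, minus strand), which recruits phosphatidylinositol 3-kinase when phosphorylated by a partner, had 3 opened peaks, all within 1 kb of the start, and 1 closed peak. The start site lay in the highest (chr10:128589365-128590141), with a mean count of 322 over 777 bp, or 41.5 per 100 bp. Its AP-1 core, TGAGTCA, lies in the bases shown above. The neighbouring opened peaks had mean counts of 64.3 at -705 bp and 57.8 at 692 bp. The closed peak covered part of exon 7 (chr10:128583143-128583245) and was low, at 13.7.

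Erbb4 (ENSMUSG00000062209, chr1:68032186-69108059, minus strand), a receptor for neuregulins, is a gene of 1076 kb and had no listed peak within 1 kb of a start site. Its closed peaks were higher than its opened ones. The highest (chr1:69210073-69210619), at -102 kb, was closed, with a mean count of 282 or 51.6 per 100 bp, and holds 1 TEAD and 2 AP-1 cores. The other closed peaks had mean counts of 52.1 at -57.3 kb, and of 24.0 and 156 in intron 20. The opened peaks had mean counts of 4.40 in intron 1 and 13.8 in intron 3, the lower of which is the lowest of all 91. Another 4 closed peaks inside the gene and 1 beyond its end were nearer to the start of Cps1 and are not counted.

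Areg (ENSMUSG00000029378, chr5:91139599-91148432, plus strand), Ereg (ENSMUSG00000029377, chr5:91074622-91093646, plus strand) and Btc (ENSMUSG00000082361, chr5:91357261-91402994, minus strand) are neighbours on chromosome 5. None of the 3 ligand genes had a listed peak within 1 kb of a start site, and Ereg had none at all. Areg had 5 opened and 1 closed peak, every one of them 28.9 to 123 kb beyond the start and past the end of the gene. The opened ones had mean counts of 10.9 at 28.9 kb, 69.5 at 64.8 kb, 248 at 66.1 kb, 32.3 at 122 kb and 152 at 123 kb, and the closed one 33.7 at 81.8 kb. The Areg peak at 66.1 kb (chr5:91205381-91205967) was the highest of this gene, at 42.3 reads per 100 bp, and its TEAD core is shown above. The 2 farthest lie in introns of Gm19619, a gene between Areg and Btc.

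Btc had 4 opened and 6 closed peaks that were interleaved along the locus. The highest (chr5:91282782-91283416) was opened, with a mean count of 416 over 635 bp, or 65.5 per 100 bp, and lies in an exon of Gm19619 at 120 kb after the Btc start. The other opened peaks had mean counts of 37.8 in exon 6, 12.2 at 45.8 kb just past the gene and 18.8 at 131 kb. The closed peaks had mean counts of 27.3 at -32.4 kb, 6.43 at -31.5 kb, 72.4 at 48.2 kb, 59.1 at 99.1 kb, 199 at 99.7 kb and 14.8 at 124 kb. The closed peak of 199 (chr5:91302967-91303575) and the opened one of 416 were neighbours on opposite lists. Counting only peaks inside a gene or within 10 kb of it, Btc had 2 opened and 1 closed, the other way round, and Areg had 0 of either. Which of Areg and Btc these distal peaks act on cannot be told from position.

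Hbegf (ENSMUSG00000024486, chr18:36504927-36515805, minus strand), whose membrane form is shed as a growth factor that binds heparin, had 1 opened and 4 closed peaks. The opened peak lay in intron 3 (chr18:36507786-36508386), with a mean count of 70.9 over 601 bp, or 11.8 per 100 bp. The closed peaks followed 11.3 to 28.7 kb after the start, beyond the gene, with mean counts of 20.0, 38.4, 16.0 and 10.6. The opened peak was thus the highest of the 5 by mean count, but per 100 bp the closed peak at 17.9 kb was higher, at 14.4. Inside the gene or within 10 kb of it there were 3 opened and 3 closed peaks, with 2 of the opened nearer to the start of Slc4a9.

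Tgfa (ENSMUSG00000029999, chr6:86195223-86275719, plus strand), a ligand of Egfr made by many epithelia, had 14 opened peaks and 1 closed peak. The opened peak over its start site (chr6:86194960-86195913) was the widest of all 91, at 954 bp, and had a mean count of 501, or 52.5 per 100 bp. Before the gene lay 6 opened peaks, with mean counts of 193 at -37.7 kb, 73.1 at -31.0 kb and 26.4 at -25.9 kb, and of 17.9 to 31.7 for the other 3, which end at -12.4 kb. The farthest of these was the highest, and with a mean count of at least 30 there remained 8 opened Tgfa peaks and 0 closed. Intron 1 held 4 opened peaks (mean counts 21.4 to 95.0) and intron 2 held 3, of which the one at 38.9 kb reached 203, or 37.3 per 100 bp. The closed peak, in intron 4 at 76.1 kb, was low, with a mean count of 18.3. Among the genes with at least 15 peaks, 62 (5.04%) had an opened share as high as that of Tgfa or higher.

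Met (ENSMUSG00000009376, chr6:17463800-17573980, plus strand) had 16 opened and 2 closed peaks. The opened promoter peak (chr6:17463400-17464178) had the highest mean count of all 91, 577 over 779 bp, and at 74.1 per 100 bp it was also the highest for its width. It holds an AP-1 core (chr6:17463903-17463909) and, in the bases shown above, an RBPJ core after it. The next highest opened peak, in intron 1 at 17.5 kb, had a mean count of 159 and holds a TEAD core. Intron 3 held 7 opened peaks between 29.0 and 45.0 kb after the start, with mean counts of 9.12 to 59.2, and 2 in intron 4, at 25.0 and 31.5. Farther into the gene there was 1 opened peak each in introns 11 (5.84), 16 (60.5) and 18 (15.5) and in exon 15 (12.2), and at -63.3 kb there was another (55.7). The closed peaks were one at -30.4 kb (chr6:17433071-17433748, 81.8) and one in exon 3 (53.9). The second of these lies 401 bp after an internal start site of a shorter Met transcript and therefore counts as a closed promoter peak. With a mean count of at least 30 there remained 7 opened and 2 closed Met peaks. Of the genes with at least 15 peaks 90 (7.32%) had an opened share at least as high as that of Met.

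Within 1 kb of a start site the genes had 8 opened peaks and 1 closed peak, 88.9% opened (56.5 to 98.0%), against 74.3% of all listed promoter peaks. The opened ones belonged to Egfr, Erbb2, Erbb3, Tgfa and Met, 5 of the 10 genes, where 28.6% of all protein-coding genes had an opened promoter peak. The closed one was that at the internal start of Met, 1 of the 10 genes, where 8.67% of all protein-coding genes had a closed promoter peak. Within 500 bp of a start site 4 opened peaks remained, 1 each for Erbb2, Erbb3, Tgfa and Met. Opened peaks covered the 5′-most start site of Erbb2, Erbb3, Tgfa and Met. Away from promoters 45 of 82 peaks were opened (54.9%, 44.1 to 65.2%), against 47.3% of all listed peaks there, and the split between genes remained, with 2 of 21 opened for Egfr (9.52%, 2.65 to 28.9%) and 43 of 61 for the others (70.5%, 58.1 to 80.4%).

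The opened share of the surroundings differed widely between the loci. Among listed peaks of other genes within 1 Mb of the start sites, 2 of 26 were opened around Egfr (7.69%, 2.14 to 24.1%), and 171 of 180 around Erbb2 (95.0%, 90.8 to 97.3%). Around Egfr the share was 4.17% within 500 kb and 20.6% within 2 Mb. The 26 around Egfr include the 6 closed peaks inside the Egfr gene that the rule gave to Fbxo48. For both receptors the surroundings were thus on the same list as most of their own peaks. Around Erbb3 62 of 83 were opened (74.7%), close to the 3 of 4 of Erbb3 itself. Met and Tgfa were opened more often than their surroundings, with 88.9% (67.2 to 96.9%) against 36 of 60 (60.0%, 47.4 to 71.4%) for Met and 93.3% (70.2 to 98.8%) against 63 of 92 (68.5%, 58.4 to 77.1%) for Tgfa, with intervals that overlapped for both. Erbb4 had 33.3% opened (9.68 to 70.0%) against 10 of 11 (90.9%, 62.3 to 98.4%), of which 9 belonged to Ikzf2, a single neighbouring gene, and within 2 Mb the share of the surroundings was 53.3%. The shares of Areg (83.3% against 59.3%), Hbegf (20.0% against 55.8%) and Btc (40.0% against 64.9%) rest on 5 to 10 peaks each, and their intervals overlapped those of the surroundings. The part of the surroundings in each gene's share was not tested.

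**Figure D2:**
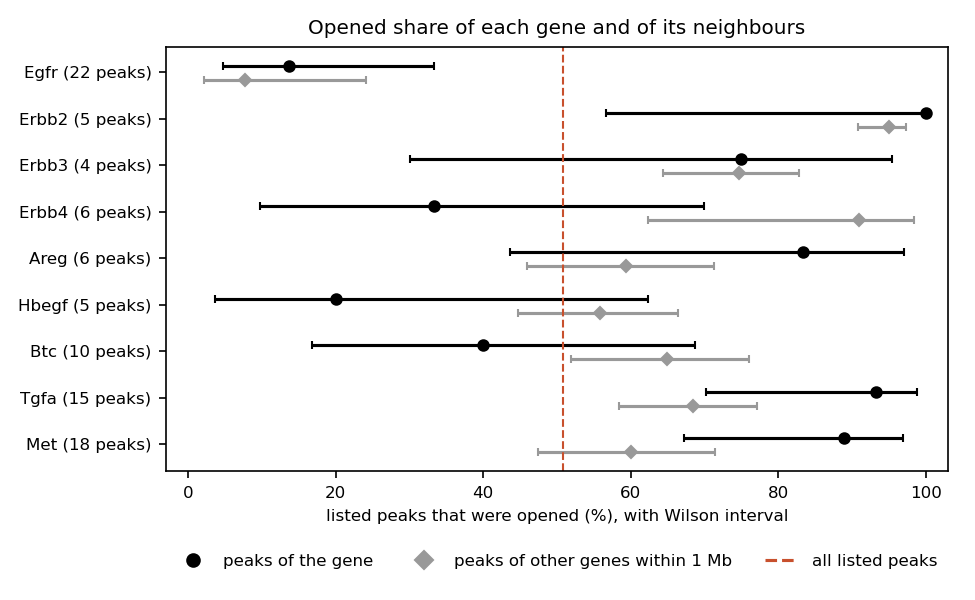
For each gene, the percentage of its listed peaks that were opened (black circles) is plotted beside that of peaks of other genes within 1 Mb (grey diamonds), with 95% Wilson intervals, and the dashed line marks 50.8% for all listed peaks. Egfr and its neighbours lie at the left, Erbb2 and its neighbours at the right, and the intervals of most genes are wide because they rest on few peaks.

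Strings of 6 motif families were counted in the central 200 bases of each peak, on both strands and without mismatch. In closed peaks of the 10 genes the AP-1 core TGANTCA was found in 19 of 38 (50.0%, 34.8 to 65.2%), against 26.4% of all closed peaks. In opened peaks it was found in 7 of 53 (13.2%), against 10.6% of all opened peaks. Egfr contributed 11 of the 19, and without Egfr the share was 8 of 19 (42.1%, 23.1 to 63.7%). At Egfr the AP-1 core was in 11 of 19 closed peaks (57.9%) and in 0 of the 3 opened ones. Opened peaks with an AP-1 core nevertheless occurred at Met, where 5 of 16 whole peaks held one, and at Tgfa, where 3 of 14 did. The sites of 5 closed Egfr peaks and of 3 opened Met peaks are shown with 10 bases on either side, to allow the flanks to be compared. They were chosen after their values were seen, and the number in each name is the distance of the peak from the start in kb.
Egfr closed -16.8: gcatttctcaTGAGTCAtcatgggctg
Egfr closed -14.7: gtttgctctaTGACTCAttaagttgac
Egfr closed 29.3: cattttctccTGACTCAtctacagggt
Egfr closed 39.2: caaacgaagcTGAGTCAcacggcgctt
Egfr closed 78.5: ctttcccatgTGACTCAttgttagtca
Met opened 35.1: tgggcggcacTGACTCAggatgtgagt
Met opened 43.2: tgtccccaggTGACTCAccagtgttga
Met opened 91.2: atgtatgaagTGAGTCActgggaatct
The sites shown are TGACTCA or TGAGTCA on both lists, but the counted string also takes in TGAATCA and TGATTCA. Of the peaks of Egfr, Met and Tgfa with the string, some held only these latter forms. They were the closed Egfr peaks at -50.3, 47.5 and 81.2 kb and the opened Tgfa peak at -37.7 kb. Met also held the AP-1 core in 1 of its 2 closed peaks, that at -30.4 kb, and the match of a string is no measure of binding.

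The TEAD core GGAATG was found in the central bases of 14 of 53 opened peaks (26.4%, 16.4 to 39.6%), against 18.1% of all opened peaks, and in 5 of 38 closed peaks (13.2%), against 8.77% of all closed peaks. Tgfa held 6 of the 14, in 14 opened peaks (42.9%), and without Tgfa the share was 8 of 39 (20.5%). The interval of the 10 genes includes the share of all opened peaks, as does that without Tgfa (10.8 to 35.5%). Counted over whole peaks, 7 of the 14 opened Tgfa peaks held 10 TEAD cores in all, and the peak at -25.9 kb held 3 of them, close together. Sites from 5 other opened Tgfa peaks are shown to set beside these, chosen after their values were seen and named in the same way.
Tgfa opened -37.7: tgaacatccaGGAATGgtcatgttta
Tgfa opened -18.8: cagtaacagaGGAATGtcctggcaga
Tgfa opened -14.4: ggattctcccCATTCCtcatccctta
Tgfa opened 14.2: tttcattcttGGAATGcttggggagc
Tgfa opened 38.9: gcggcagggtGGAATGagtcttcctg
The sites lie before the gene and in introns 1 and 2, and none lies in the promoter peak of Tgfa.

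**Figure D3:**
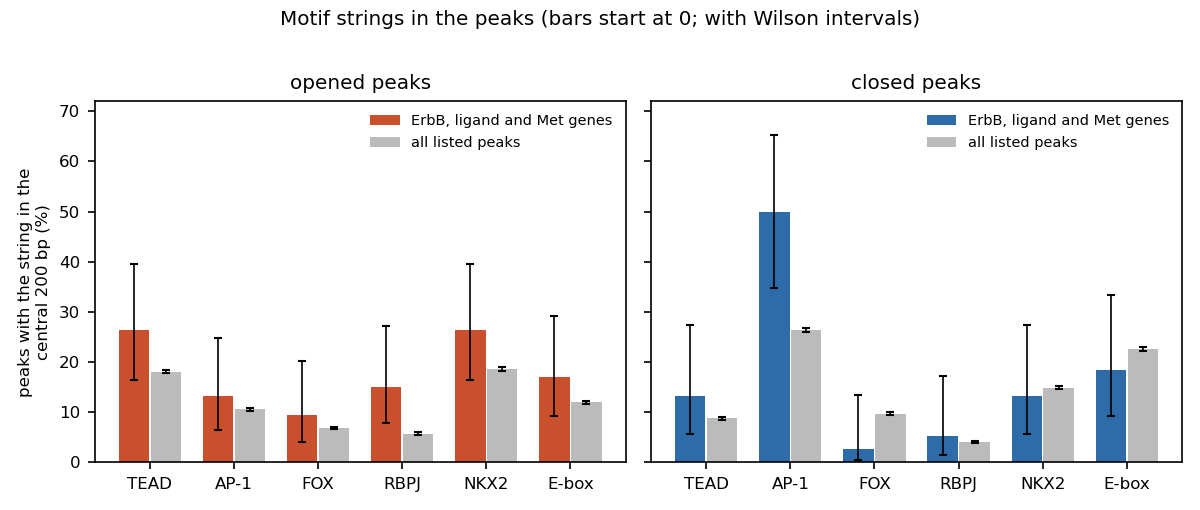
Bars give the percentage of opened peaks (left) and closed peaks (right) with a motif string in the central 200 bp, for peaks of the 10 genes (coloured) and all listed peaks (grey), with 95% Wilson intervals. The AP-1 string in closed peaks stands highest, at 50.0% against 26.4%, and the TEAD string in opened peaks is at 26.4% against 18.1%.

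Of the other strings, that of RBPJ (GTGGGAA) was in 8 of 53 opened peaks of the 10 genes (15.1%, 7.85 to 27.1%), against 5.74% of all opened peaks. Without Tgfa it was in 5 of 39 (12.8%, 5.60 to 26.7%), an interval that includes the share of all opened peaks. In closed peaks it was in 5.26% against 4.02%. The forkhead string TGTTTAC was in 5 of 53 opened (9.43%) and 1 of 38 closed peaks (2.63%), against 6.84% and 9.70% of all. The string of NKX2 factors (CACTTNA) was in 26.4% and 13.2%, against 18.6% and 14.9%, and the E-box CAGCTG in 17.0% and 18.4%, against 12.0% and 22.6%. In 2 of the 91 peaks strings of different families overlapped, and at the Tgfa peak shown above a TEAD and an RBPJ string share bases. RefSeq promoters of the same length matched 7 of the 10 genes. Among 32851 RefSeq promoters 14.7% held the TEAD string, 7.81% that of AP-1 and 6.38% that of RBPJ. Of the 7, only that of Erbb2 held TEAD, only that of Met held AP-1, and those of Met and Areg held RBPJ.

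Other genes of the pathway were counted by the same rule. Beside the 10 genes above, 50 further genes in 5 lists were looked up, of which 27 had an opened and 5 a closed promoter peak, against 28.6% and 8.67% of all protein-coding genes, and 2 had no listed peak. Their peaks were 269 opened and 216 closed, 55.5% opened, near the 50.8% of all listed peaks that the shares of the lists are to be read against.

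The 6 remaining ligands of the family had 7 of 56 peaks opened (12.5%), against 50.8% of all listed peaks. Of the 56 peaks 37 belonged to Nrg1, and without it 5 of 19 were opened (26.3%, 11.8 to 48.8%). Of the neuregulins, which bind Erbb3 and Erbb4, Nrg1 had 35 closed and 2 opened peaks, Nrg2 6 closed and Nrg3 2 closed, each with a closed promoter peak, whereas Nrg4 had 2 opened peaks, with one at its promoter. Epgn (epigen), a ligand of Egfr, had 1 opened peak, at its promoter. Egf had 2 opened and 6 closed peaks, none at a promoter. Hgf, the ligand of Met, was on the other list from its receptor, with 16 closed peaks, 0 opened and a closed promoter peak. With the related genes of its list 25 of 48 peaks were opened (52.1%), near the share of all listed peaks. Its activators Hgfac, Hpn (hepsin) and St14 (matriptase) and the inhibitors of these proteases, Spint1 and Spint2, all had an opened promoter peak. Hgfac had 6 opened of 6 peaks, Spint2 5 of 5, Hpn and Spint1 3 of 4 each and St14 7 of 12.

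Promoter counts of the next lists are to be read against 28.6% opened and 8.67% closed among all protein-coding genes. Among the genes for the release of ErbB ligands, Adam10, Rhbdf1 and Rhbdf2 had an opened promoter peak, Rhbdf1 also a closed one. Of the 21 peaks of this list 18 were opened (85.7%), against 50.8% of all listed peaks. Adam17, the main sheddase of several of the ligands, had 4 opened peaks of 4, none at a promoter. Of 20 adaptors and effectors 13 had an opened and 0 a closed promoter peak, and 96 of 134 peaks were opened (71.6%). The adaptor Grb2 had 9 opened of 9 peaks and Plcg1 11 of 11, while Pik3r1, a regulatory subunit of phosphatidylinositol 3-kinase, had the most peaks, with 25 opened and 14 closed. Of 12 inhibitors 4 (Errfi1, Lrig1, Spred1 and Cbl) had an opened promoter peak, near the share of all protein-coding genes, and 0 a closed one. Of the 226 peaks of the list 123 were opened (54.4%), near the 50.8% of all listed peaks. The inhibitors did not run one way. Errfi1, which binds and blocks the Egfr kinase, had 18 opened of 19 peaks, and Lrig1, which lowers ErbB receptor levels, 25 of 34, but its relative Lrig3 had 2 opened of 24, and Dusp6, a phosphatase of ERK, 3 of 19.

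**Figure D4:**
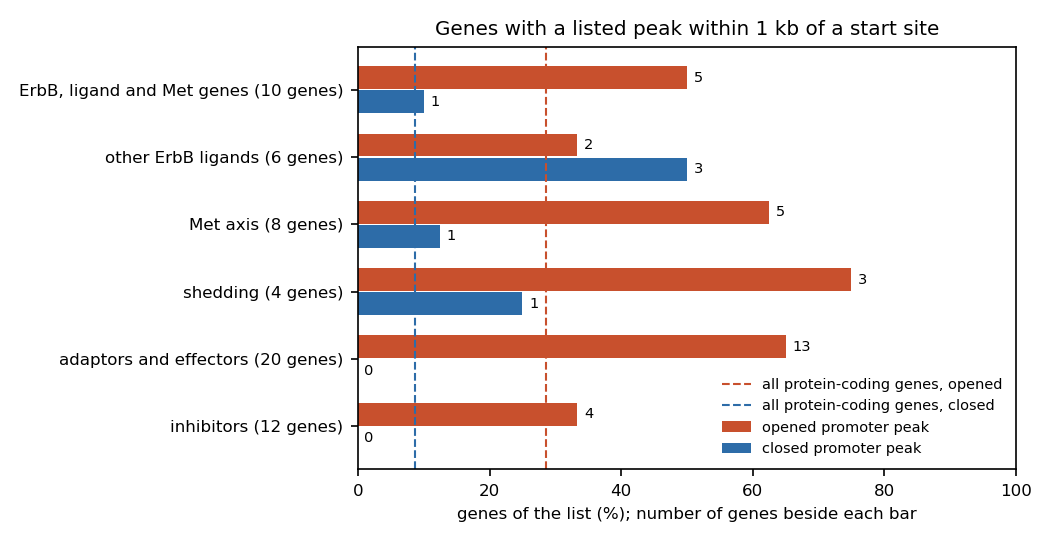
Horizontal bars give the percentage of genes in each list with an opened or a closed peak within 1 kb of a start site, with the number of genes beside the bar, and the dashed lines give 28.6% opened and 8.67% closed for all protein-coding genes. Of the adaptors and effectors 13 of 20 had an opened promoter peak, whereas of the other ErbB ligands 3 of 6 had a closed one.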

How the data were processed

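Per the study's methods, the authors trimmed reads, aligned them to mm10 with Bowtie2 (2.3.4.1 per the labels), removed duplicates, called narrow peaks with MACS2, merged them over samples, counted reads per merged peak and compared GFPhigh with GFPneg cells with DESeq2 (1.28.1 per the labels). The 8 libraries were run on 2 lanes each, 16 runs in all. Whether lanes, or the pairs of one mouse, were summed is not given in the sources used here. The deposited signal is 1 mean normalized read count per peak over all libraries, with no value per library. Further columns hold the authors' own fold changes, their errors and p-values. No value of these is used, apart from counting that no peak of either list missed the stated limits.

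Peaks were placed with GENCODE M21 basic start sites of 21840 protein-coding genes (Python 3.11.15, pandas 2.3.3). A promoter peak has its centre within 1 kb of one. Distances are to the 5′-most start site, and exons and introns are of the longest protein-coding transcript. Intervals of shares are 95% Wilson intervals from scipy 1.17.1 and cover counting error only. Strings were counted in the central 200 bases, which reach past narrower peaks. The search for the nearest start site and the search for strings were tested on simulated data, and the other steps were not. For each gene the peak nearest its start and the highest opened and closed peaks are named, and other peaks are given as ranges or in full. Genes and lists were chosen with earlier results of these data known. No peak lay outside its chromosome, and the 7 RefSeq promoters matched the genome. The values of 1 gene of the pathway lists are not reported here.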

Additional observations from a re-analysis of the deposited data

How the results depend on the processing

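The lists give no value per library, and recomputing without a replicate, another normalization and a stricter p-value were not run. No paired analysis was possible because the files hold no column per sample. Peaks that missed the study's limits, and the depth behind a low mean count, are not seen here.

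Counting a peak for the nearest start site of any gene type left 34 opened and 17 closed peaks, of which Egfr had 1 and 9, Tgfa 8 and 0, and Erbb4 0 and 0. Under that rule Erbb2 had 3 and 0, Areg 1 and 0, and Btc 2 and 3. Keeping peaks with a mean count of at least 30 left 30 opened and 15 closed, of which Egfr had 2 and 5, Met 7 and 2, Erbb4 0 and 3, Btc 2 and 3 and Hbegf 1 and 1. At most 100 kb from the start site there were 47 and 34, of which Erbb4 had 0 and 1, Areg 3 and 1 and Btc 2 and 5. Without Egfr 19 closed peaks remained and 72.5% were opened, and the receptors moved to 66.7% opened. Without Tgfa the ligands moved to 47.6%, and without Nrg1 the other ErbB ligands to 26.3%. Leaving out these 3 genes was chosen after seeing the data, and the other settings named here were planned. With a promoter window of 500 bp the opened promoter peaks fell to 4, and Egfr had none. The opened share of the surroundings moved within 500 kb to 97.9% for Erbb2, 100% for Erbb4 and 69.4% for Hbegf, and within 2 Mb to 53.3% for Erbb4. For Egfr it was 4.17% within 500 kb and 20.6% within 2 Mb. Counting peaks inside a gene or within 10 kb of it gave 48 opened and 36 closed. There Btc turned from 4 opened and 6 closed to 2 and 1, Hbegf went from 1 and 4 to 3 and 3, Areg from 5 and 1 to 0 and 0, and Egfr had 3 and 21. Tgfa went from 14 and 1 to 8 and 2, Erbb4 from 2 and 4 to 2 and 7, and Erbb2 from 5 and 0 to 10 and 0.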
